A study of Mus musculus with 6 samples.

Results

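Optc+ cells were 1 of the 10 cell types that the authors' annotation gave to single cells of CD31-enriched suspensions of retina, and they were taken here as every cell with that name in the deposited table. They numbered 157 of 8944 cells (1.76%) and held 237068 of 10361314 UMIs. A UMI, or unique molecular identifier, marks 1 captured RNA molecule, and the method was Drop-seq, in which a cell shares a droplet with a barcoded bead. All 157 cells lay in the same cluster of the authors, which held 159 cells.

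The mice were pups at postnatal day 14 in the oxygen-induced retinopathy model (OIR), in which high oxygen stops the growth of retinal vessels and the return to room air starts abnormal growth. There were 3 replicates labelled eNOS+/+, from C57BL/6J mice, and 3 labelled eNOS-/-, which are knockouts of endothelial nitric oxide synthase (gene Nos3) backcrossed to C57BL/6J. Each replicate pooled 3 to 5 retinas, and beads against CD31, a surface protein of endothelial cells (ECs), had enriched each suspension. All 6 replicates were OIR retina, so no value here compares OIR with normal retina. Whether replicates shared a litter or a day was not stated in the labels, and p-values measure the spread between these samples.

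Optc encodes opticin, a small leucine-rich proteoglycan of the vitreous. The vitreous is the gel behind the lens, built of thin fibrils of type II, IX and V/XI collagen with hyaluronan between them. Opticin and much of the vitreous collagen are made by the non-pigmented layer of the ciliary epithelium, a sheet of cells of neural origin that continues the retina at its front edge. The same sheet pumps ions and water to form the aqueous humour, and it makes the fibrillin fibres of the zonule, which hold the lens. The outer, pigmented layer of the ciliary epithelium continues the retinal pigment epithelium.

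The eNOS+/+ replicates held 15, 24 and 49 Optc+ cells and the eNOS-/- replicates 24, 40 and 5. Cells were assigned by the annotation's replicate column. Another column, of library names, gives eNOS+/+ replicates 1 and 2 the same value, so their separation rests on the replicate column. The median Optc+ cell had 916 UMIs and 612 genes, against 554 UMIs in the other cells. Optc+ UMIs summed per replicate to 16838, 47062 and 88304 in eNOS+/+ and to 32196, 48671 and 3997 in eNOS-/-, so 1 UMI was worth 11.3 to 59.4 counts per 1000000 UMIs (CPM) in 5 replicates and 250.2 CPM in eNOS-/- replicate 3. No Optc+ barcode was shared with another library. Of the 157 barcodes, 71 differed only in the last base from another barcode of their library, in 21 families, of which 17 held Optc+ cells alone. Nos3 had 0 UMIs in Optc+ cells of all 6 replicates, which allows up to 12.7 CPM, and in the other cells it stood at 24.7 ± 9.16 against 19.3 ± 6.69 CPM (SD, n = 3 each), so its UMIs do not check the genotype labels.

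Not every cell under the label carried its genes. Optc and the genes Col9a1 (a chain of type IX collagen), Dapl1 (a protein of epithelial cells) and Crhbp (a binding protein of the stress hormone CRH) were used as 4 marker genes, of which the last 3 were chosen after their values were seen. UMIs of all 4 were found in 89 Optc+ cells, of 3 in 33, of 2 in 14, of 1 in 7 and of none in 14. Among the 8787 other cells, 5 had 3 or more of the 4, and 3 of those 5 were of the neuroglia. The 14 Optc+ cells with none of the 4 all came from eNOS-/- replicates, although their median depth of 1716 UMIs was above that of Optc+ cells as a whole.

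The 157 cells fell into 4 groups by these genes and by the genes of pigment cells. In 141 cells there was a UMI of at least 1 of the 4 genes and at most 6 UMIs of the pigment list, and these cells are called marker-positive below. Another 9 cells had 24 to 323 pigment UMIs each, 2 of them in eNOS-/- replicate 1 and 7 in replicate 2. They held 888 of the 902 Dct UMIs of Optc+ cells, all 52 UMIs of Gpnmb, and 274 UMIs of Pmel and 82 of Mlana, genes of melanin synthesis and of the melanosome. None of the 9 had a UMI of Optc, and their summed pigment list stood at 60576 CPM against 183 CPM in the 141. Of the same list, Rpe65, Ttr, Best1 and Lrat had 0 UMIs in all Optc+ cells. Rpe65 and Ttr reached 100 and 1625 CPM in immune cells, and Best1 and Lrat had too few UMIs in the table to be measured. Optc+ cells in all held 44.0% of the 3224 pigment UMIs of the table, and 124 of the 157 had none. The authors had removed contaminant clusters of red blood cells and retinal pigment epithelium. This share therefore holds for the cells they kept and not for the whole suspension.

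All 5 Optc+ cells of eNOS-/- replicate 3 lacked the 4 genes. They held 86 UMIs of Rgs5 and 48 of Mgp, each found in all 5 cells, and 17 of Higd1b, genes known from pericytes and other mural cells of vessels. Their summed mural list stood at 23518 CPM, against 62.8 CPM in the 141 marker-positive cells, and their summed vitreous list was at 0 UMIs. The remaining 2 cells, of eNOS-/- replicate 2, held 85 UMIs of Dcn and 8 of Lum, proteoglycans of fibroblasts, with 7 of the 8 genes of the fibroblast list found. The genes named in these last 3 groups outside the fixed lists were chosen after their values were seen. Only the cells of eNOS-/- replicates held such groups, so the share of marker-positive cells was 15 of 15, 24 of 24 and 49 of 49 in eNOS+/+, and 22 of 24, 31 of 40 and 0 of 5 in eNOS-/-. The rule is loose, since 63.0% of the neuroglia also had a UMI of at least 1 of the 4 genes. A cell of eNOS+/+ replicate 3 passed on 2 UMIs of Dapl1, with 0 of the vitreous and ciliary epithelium lists. Another, of eNOS-/- replicate 1, passed with 38 UMIs of the endothelial list. These shares therefore do not show that marker-positive cells are all of 1 type.

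**Figure D1:**
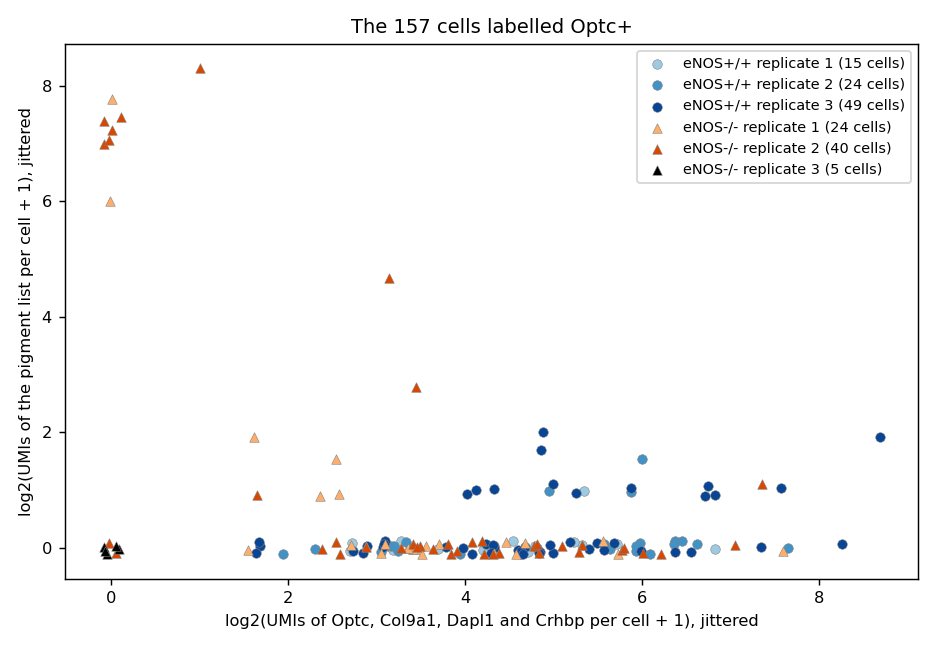
Each point is 1 Optc+ cell, coloured by replicate, with its summed UMIs of Optc, Col9a1, Dapl1 and Crhbp on the horizontal axis and its UMIs of the pigment list on the vertical axis, both as log2(UMIs + 1) with a small random shift. The 9 cells with 24 to 323 pigment UMIs sit apart at the top, in eNOS-/- replicates 1 and 2, and the 5 cells of eNOS-/- replicate 3 lie near 0 on both axes.

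Levels below are means of CPM over the 5 replicates with at least 10 Optc+ cells, with the SD over those replicates, and eNOS-/- replicate 3 is left out of them. Since the cells were clustered on these UMIs, the comparison with other cells is a description with no test. A gene is called higher where its mean was at least 4-fold that of all other cells, with at least 10 UMIs in Optc+ cells and a higher level in each of the 5 replicates, and lower where it was at most 0.25 of it and lower in each. Of 13087 genes measured, 323 were higher (2.47%) and 2002 were lower (15.3%), and the median fold of all measured genes was 0.786. Tspan3 at 3.97-fold and Frrs1 at 3.99-fold lay just outside the limit, and Amotl2 at 4.00-fold and Csad at 4.01-fold just inside it.

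Optc, the gene that names the cells (chr1:133897199-133907999 of GRCm38, minus strand), had 1056 of its 1109 UMIs (95.2%) in them. It stood at 7602, 4016 and 6500.3 CPM in the eNOS+/+ replicates and at 1926, 2116 and 0 CPM in the eNOS-/- replicates. With all replicates Optc was not called between the genotypes (adjusted p = 0.181, edgeR). The 0 CPM came from eNOS-/- replicate 3, whose cells lacked the 4 marker genes. The mean was 4432 ± 2557 CPM against 6.28 ± 5.55 CPM in the other cells (SD, n = 5), a 706-fold difference. A UMI of Optc was found in 70.7% of Optc+ cells, and in 0 to 2.72% of the cells of the other types, with the neuroglia highest. With every cell drawn down to 500 UMIs, which left out 46 Optc+ cells, the share was 64.0% against at most 1.19%. The 46 Optc+ cells without an Optc UMI had a median of 590.5 UMIs, against 1092 in the 111 cells with one.

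Col9a1 (chr1:24177610-24252684, plus strand) stood at 4811, 5631 and 6557 CPM in eNOS+/+ and at 6336, 5527 and 0 CPM in eNOS-/-, so that apart from eNOS-/- replicate 3 the groups overlapped. Its mean was 5772 ± 696 CPM, 202-fold that of the other cells. Dapl1 (chr2:59484653-59505020, plus strand) was found in 87.3% of Optc+ cells and stood at 8715 ± 2874 CPM, 192-fold that of the other cells. Crhbp (chr13:95431371-95444924, minus strand) was 881-fold higher, at 3475 ± 1408 against 3.95 ± 3.51 CPM, and 785 of its 822 UMIs lay in Optc+ cells. Col9a1 and Dapl1 were next highest in the neuroglia, at 1219.9 and 1761 CPM, whereas the highest other type for Optc reached 81.7 CPM and that for Crhbp 68.7 CPM. Of the neuroglia, 63.0% of cells had a UMI of at least 1 of the 4 genes, against 3.86% of all cells outside the Optc+ type.

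The 250 bases before the start of Optc, Dapl1 and Crhbp are shown because these genes mark the cells. They are RefSeq promoters of GRCm38.p6, read 5′ to 3′ on the strand of the gene, at chr1:133908000-133908249 for Optc, chr2:59484403-59484652 for Dapl1 and chr13:95444832-95445081 for Crhbp. Capitals mark TATAAA, the only 1 of 3 searched motifs found in these windows, which in Dapl1 began 29 bases before the start. The RefSeq start of Crhbp lies inside the gene as GENCODE draws it, so part of its window falls within the gene coordinates given above.
Optc: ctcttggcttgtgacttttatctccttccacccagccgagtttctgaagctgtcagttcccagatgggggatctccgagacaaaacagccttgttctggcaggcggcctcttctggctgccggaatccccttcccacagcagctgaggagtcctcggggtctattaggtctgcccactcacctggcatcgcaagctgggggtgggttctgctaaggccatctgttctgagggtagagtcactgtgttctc
Dapl1: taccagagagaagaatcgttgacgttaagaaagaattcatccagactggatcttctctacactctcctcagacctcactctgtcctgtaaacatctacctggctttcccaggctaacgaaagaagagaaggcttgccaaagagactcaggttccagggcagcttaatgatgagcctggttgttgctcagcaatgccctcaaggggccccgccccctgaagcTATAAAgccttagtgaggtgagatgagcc
Crhbp: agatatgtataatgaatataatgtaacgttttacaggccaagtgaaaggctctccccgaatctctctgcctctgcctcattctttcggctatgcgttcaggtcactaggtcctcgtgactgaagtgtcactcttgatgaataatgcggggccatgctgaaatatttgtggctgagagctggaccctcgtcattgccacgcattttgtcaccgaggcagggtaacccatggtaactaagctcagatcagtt
The other motifs were TAATCC, the letters that OTX factors read, and ACAAAG, those that SOX factors read, both on either strand, and TATAAA was searched on the coding strand. Among all genes of the RefSeq table the share with at least 1 such promoter was 7.21% for TAATCC, 18.6% for ACAAAG and 8.94% for TATAAA. Of the 12 leading genes with an entry in that table, TAATCC was present in 2 (Ltbp2 and Slc6a13), ACAAAG in 1 (Lrrn1) and TATAAA in 1 (Ogn). A window without a match says only that these letters are not in it.

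The 20 genes of largest fold were led by Defb11, Crhbp, Mfap4, Optc and Penk. Defb11, a beta-defensin, had 47 of its 48 UMIs in Optc+ cells and stood at 119, 297 and 249 CPM in eNOS+/+ and 155, 82.2 and 0 CPM in eNOS-/-. In 19 of the 20 genes Optc+ cells had the highest level of the 10 types in each of the 5 replicates, and Tmprss11e, a serine protease of epithelia, was the exception with 4 of 5. The lowest fold of any of the 20 under the alternatives tried was 25.6. Of the 20, 11 were in the fixed lists of the next paragraphs. By textbook function, the 20 held matrix and zonule genes (Mfap4, Optc, Fbn2, Ltbp2, Fmod, Ogn, Col4a5 and Col9a1), secreted inhibitors of Wnt signalling (Notum and Sfrp1), secreted peptides and binding proteins (Defb11, Crhbp, Penk, Igfbp2 and Wfdc2) and membrane proteins of epithelia (Folr1, Best2, Slc6a13 and Tmprss11e), besides Lrrn1, a membrane protein with leucine-rich repeats.

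Among the secreted proteins, Penk, which encodes the precursor of the enkephalins, stood at 446 ± 298 CPM, 683-fold that of the other cells. Its replicates ran from 891 CPM in eNOS+/+ replicate 1 down to 124 CPM in eNOS-/- replicate 1, and it was listed at 0 in eNOS-/- replicate 3. Igfbp2, which binds insulin-like growth factors, stood at 3504, 3017 and 2661 CPM in eNOS+/+ and at 1025, 555 and 0 CPM in eNOS-/-. With all replicates Igfbp2 was not called between the genotypes (adjusted p = 0.0656, edgeR). Its 0 CPM came from eNOS-/- replicate 3, whose cells lacked the 4 marker genes. Sfrp1 ran from 311 to 493 CPM across the 5 replicates, at 221-fold that of the other cells, but 20 of its 96 UMIs lay in the 9 pigment-rich cells of eNOS-/- replicates 1 and 2. Among the membrane proteins, Folr1, a folate receptor, stood at 648 ± 416 CPM (531-fold). Best2, a chloride channel of the non-pigmented ciliary epithelium, rested on 28 UMIs in 12.7% of the cells and stood at 475 CPM in eNOS+/+ replicate 1 against 20.5 to 159 CPM in the other 4 replicates (446-fold for the mean). Slc6a13, a transporter of GABA and taurine, stood at 329.9 ± 171 CPM (221-fold).

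**Figure D2:**
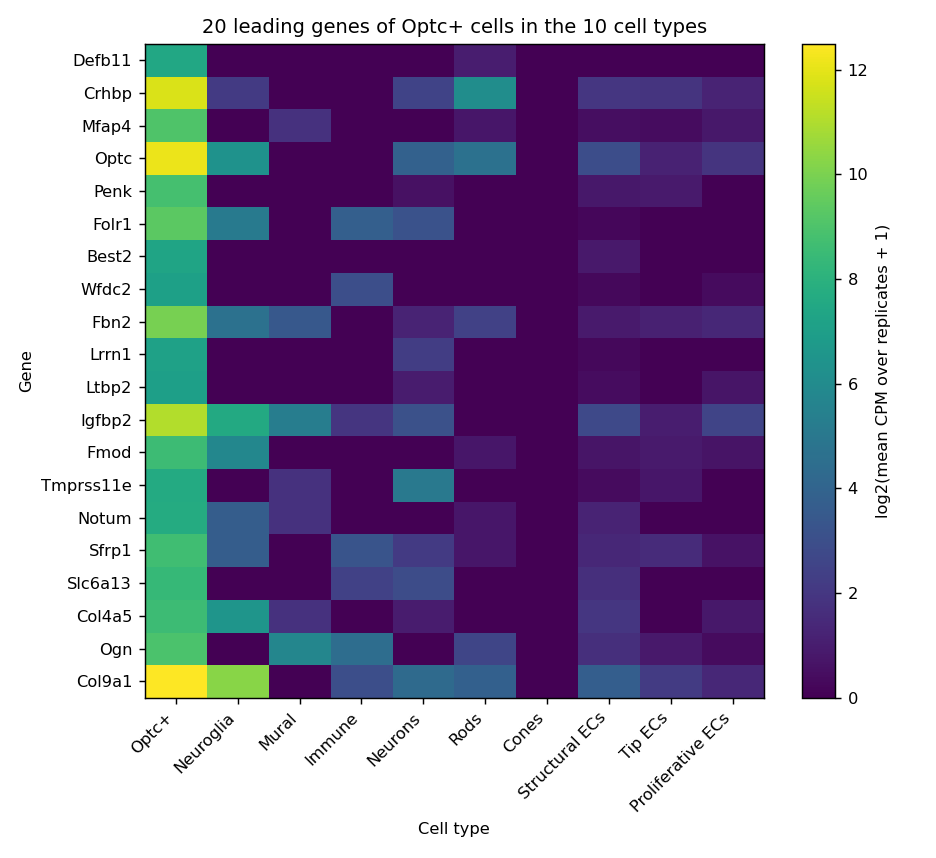
Mean CPM of the 20 leading genes in each of the 10 cell types, as log2(CPM + 1), averaged over replicates with at least 10 cells of the type. The Optc+ column is highest in all 20 rows, and the next column with colour is that of the neuroglia, where Col9a1 reached 1219.9 CPM.

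Of the 15 genes of the vitreous matrix list, 11 were measured, 7 were higher and 1 was lower, with a median fold of 85.8. All 3 chains of type IX collagen were higher, Col9a2 at 96.2-fold (252 ± 142 CPM) and Col9a3 at 106-fold (607 ± 207 CPM) beside Col9a1. Col2a1, which encodes the main collagen of the gel, stood at 535, 722 and 623 CPM in eNOS+/+ and 435, 247 and 0 CPM in eNOS-/-. Its mean was 37.4-fold that of the other cells, but the neuroglia were higher, at 752 CPM, and Optc+ cells were the highest type in 1 of 5 replicates. Col11a1, a chain of the fibril core, was 85.8-fold higher and Vcan, a large proteoglycan that binds hyaluronan, 180.3-fold. Col18a1, a collagen of basement membranes that carries endostatin, stood at 1381 ± 456 against 447 ± 124 CPM, a 3.09-fold difference that missed the limit. Col5a2 was lower, at 0.168 of the level of the other cells, and Vit had 0 UMIs in Optc+ cells. The summed list stood at 9677 to 17055 CPM in the 5 replicates and at 446 to 699 CPM in the other cells. Its mean sum of 13775 CPM includes Optc, the gene that names the cells, at 4432 CPM and Col9a1 at 5772 CPM.

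Of the 8 measured genes of the zonule list, 6 were higher and none was lower. Fbn2, which encodes fibrillin-2, the fibrillin of young tissue, stood at 1900.5, 1105 and 509.6 CPM in eNOS+/+ and 808, 534 and 0 CPM in eNOS-/-, 425-fold that of the other cells in the mean. Fbn1, which encodes the main fibrillin of the zonule, was 88.7-fold higher, at 244 ± 51.6 CPM. Of the proteins that bind fibrillin fibres, Mfap4 was 737-fold higher (524 ± 184 CPM), Ltbp2 307-fold (133 ± 106 CPM) and Mfap2 11.9-fold (572 ± 144 CPM). Mfap2 was also found in eNOS-/- replicate 3, at 751 CPM. Loxl1, an enzyme that cross-links elastic fibres, was 85.4-fold higher.

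The small leucine-rich proteoglycans are the family of opticin, and 4 of the 10 measured were higher, Optc, Fmod, Ogn and Prelp. Fmod, or fibromodulin, stood at 891, 212 and 306 CPM in eNOS+/+ and 342, 164 and 0 CPM in eNOS-/- (288-fold). Ogn, or osteoglycin, stood at 488 ± 189.7 CPM (203-fold) and Prelp at 207 ± 38.4 CPM (52.4-fold). For Prelp the neuroglia had the higher mean, at 240 CPM, although Optc+ cells were the highest type in 4 of 5 replicates. Optc, Prelp and Fmod are neighbours, with Prelp (chr1:133910304-133921414, minus strand) 2.30 kb and Fmod (chr1:134037254-134048277, plus strand) 129 kb from Optc. Bgn and Ecm2, which encode biglycan and a matrix protein with leucine-rich repeats, were lower. Dcn stood at 353 ± 790.2 CPM, but all of it came from eNOS-/- replicate 2, where the pair of cells described above held 85 of its 86 UMIs.

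Of the 12 genes of the ciliary epithelium list, 8 were higher and none was lower, with a median fold of 54.7. Besides Optc, Col9a1 and Best2 these included Zic1, Wfdc1, Gja1 and Aqp4. Zic1, a transcription factor of the ciliary body, was 100.3-fold higher (787 ± 247 CPM). Gja1, a gap junction protein, was 6.65-fold higher (1445 ± 368 CPM) and Wfdc1, a secreted protease inhibitor, 13.8-fold. Aqp4, a water channel, was 10.6-fold higher, yet at 127 CPM it stood below the 730.5 CPM of the neuroglia. Otx1, a homeobox factor of the ciliary body, had 27 of its 30 UMIs in Optc+ cells but 0 in eNOS+/+ replicate 1, so it did not count as higher. Msx1, Atp1b2 and Col18a1 did not pass either. The summed list stood at 13334 to 21392 CPM against 811 to 998 CPM in the other cells. Its mean sum of 16984 CPM includes Optc, the gene that names the cells, at 4432 CPM and Col9a1 at 5772 CPM.

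The ciliary margin is the strip of progenitors at the front edge of the retina from which the ciliary epithelium forms, and 9 of 13 measured genes of its list were higher and none lower. Pax6, the homeobox factor of the early eye, stood at 2079, 1126 and 1064 CPM in eNOS+/+ and 1211, 1377 and 0 CPM in eNOS-/- (53.5-fold). Bmp4 and Bmp7, growth factors that pattern this edge, were 112-fold and 95.1-fold higher, at 306 ± 95.7 and 148 ± 61.4 CPM. Zic2 was 16.0-fold higher, Rdh10, an enzyme of retinoic acid synthesis, 18.5-fold and Ccnd2, a cyclin, 4.03-fold. Rdh10 stood at 483 CPM in Optc+ cells and at 629 CPM in the neuroglia, and Optc+ cells were its highest type in 1 of 5 replicates. Of the 18 measured factors of the eye field list, 8 were higher (Pax6, Zic1, Zic2, Six6, Lhx2, Rax, Meis1 and Meis2), from 7.86-fold for Meis2 to 100.3-fold for Zic1. Six6 at 369 ± 144 CPM, Lhx2 at 238 ± 83.5 CPM and Rax at 363 ± 252 CPM were also found in the neuroglia or in cones at like levels. Six6, for example, stood at 443 CPM in cones, whose mean rests on 1 replicate. Meis1 stood at 196 CPM against 222 CPM in cones, and Meis2 at 201 CPM against 203 CPM in neurons. Otx2, the factor of photoreceptors and pigment epithelium, was lower at 0.216 of the level of the other cells, with 5 UMIs in all, and Mitf was not higher.

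Of 20 genes for the transport of ions and water that forms aqueous humour, 6 were higher (among them Atp1b3, Best2, Gja1, Car14 and Aqp4) and 2 lower, with a median fold of 1.03. Atp1b3, a subunit of the sodium pump, stood at 1267 ± 685 CPM (6.05-fold). Car14, a membrane-bound carbonic anhydrase, was 13.3-fold higher, at 224 ± 114 CPM, and stood at 789 CPM in the neuroglia. Aqp1, a water channel that stood at 212 CPM in Structural ECs, was at 0.179 of the level of the other cells, and Car4 had 0 UMIs. The lists above share genes, so their counts are not independent: Optc and Col9a1 are in more than 1 of them.

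**Figure D3:**
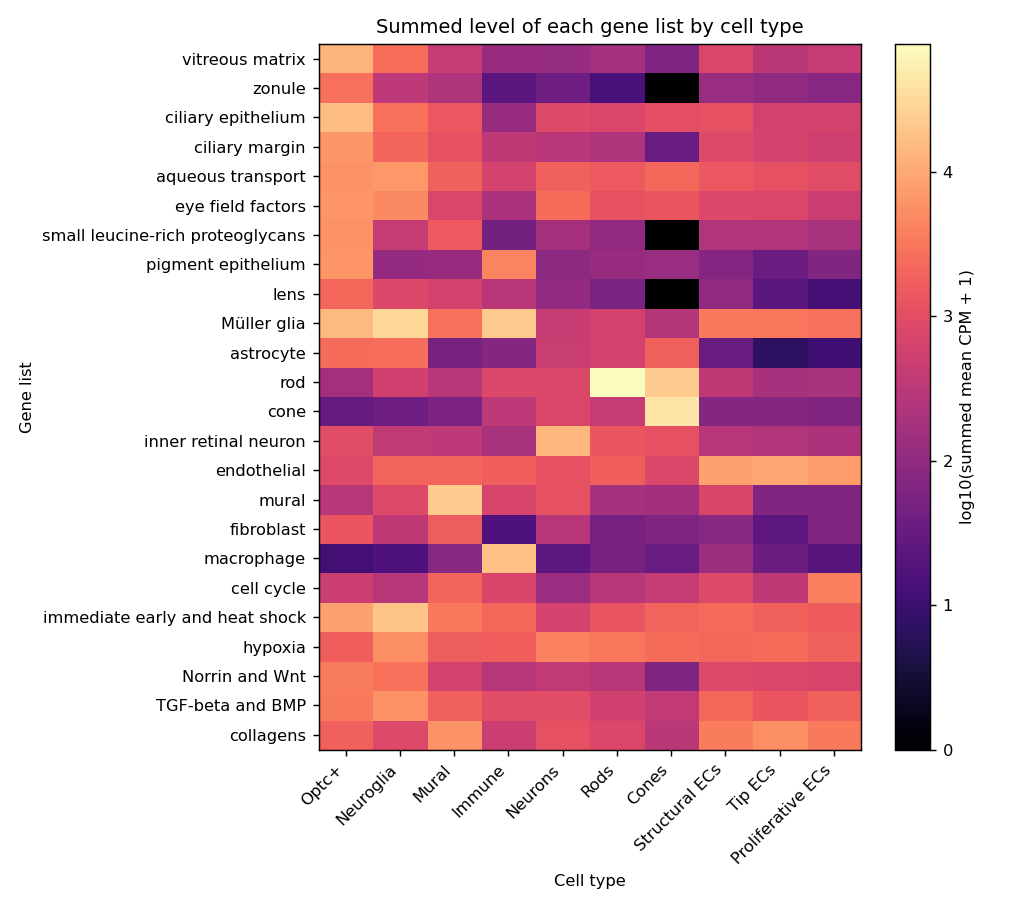
Summed mean CPM of each gene list in the 10 cell types, as log10(CPM + 1). Optc+ cells have the highest sum for the vitreous, zonule, ciliary epithelium, ciliary margin, eye field, small leucine-rich proteoglycan, and Norrin and Wnt lists. They are also highest for the pigment list (6452 against 4319 CPM in immune cells) and the lens list (2141 against 824 CPM in the neuroglia). The pigment sum was highest in eNOS-/- replicates 1 and 2, which held the 9 pigment-rich cells. The neuroglia have the highest sum for the Müller glia list, at 29490.4 against 14832 CPM. The vitreous and ciliary epithelium sums include Optc, the gene that names the cells.

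Markers of the other cell types were read in the same way. Of 10 endothelial genes, 9 were lower and none was higher, and Pecam1, which encodes the CD31 of the enrichment, stood at 443 ± 147 against 1208 ± 163 CPM. Of 12 rod genes, 11 were lower, with the summed list at 42.5 to 329 CPM. Of 11 macrophage genes 8 were lower, of 4 erythroid genes 3, and of 10 genes of inner retinal neurons 4, with none higher in any of these lists. No cone gene and no mural gene was higher. The pigment list had no gene that passed, and its sum ran from 59.4 to 22375 CPM, with the eNOS-/- replicates 1 and 2 above all others through the 9 cells. Of the fibroblast list only Fbln1, a matrix protein, was higher, at 694 ± 320.0 CPM (30.6-fold). Of 3 measured lens genes Cryab, a small heat shock protein, was higher, at 6652, 999 and 906 CPM in eNOS+/+ and 497, 801 and 500.4 CPM in eNOS-/-, so that eNOS+/+ replicate 1 stood far above the rest. Of the surface epithelium list, 1 gene was in the table and it was too low to measure.

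Müller glia, the radial glia of the retina, were the nearest of the named types by these lists. Of 13 measured genes of their list 6 were higher in Optc+ cells, Dkk3 (49.5-fold, 2477 ± 765 CPM), Apoe (13.6-fold), Car14, Aqp4, Glul (4.19-fold) and Prdx6. Yet Glul, the enzyme that turns glutamate into glutamine, stood at 1657 ± 609 CPM against 5473 CPM in the neuroglia. Prdx6 stood at 630 CPM against 1210 CPM in the neuroglia, and Apoe at 6494 CPM against 20342 CPM in immune cells. Rlbp1, Slc1a3 and Crym, which set Müller glia apart in the mature retina, did not pass, at 76.7, 168 and 10.5 CPM against 3634, 2605 and 1630.2 CPM in the neuroglia. Of 5 measured astrocyte genes 2 were higher, Igfbp2 and Aldoc, with Aldoc at 203 CPM against 1139 CPM in the neuroglia. Over all 13087 genes the mean profile of Optc+ cells was most like that of the neuroglia, with a Pearson correlation of 0.748 and a Spearman correlation of 0.697 across genes, followed by Structural ECs at 0.724 and 0.677. These are descriptions over genes, which are not independent, and types of the same libraries share depth and free RNA.

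Genes whose level across the 10 cell types followed that of Optc most closely were Shisa2 (Pearson correlation of log2(CPM + 10) of 0.995), Csdc2 (0.974), Nkain4 (0.973), Abca2 (0.972), Notum (0.970), Sned1 (0.970), Cpxm1 (0.969), Gm43377 (0.969), Fbn2 (0.966) and Plxnc1 (0.965). With 10 points, of which 1 is high, these values describe genes at a high level in Optc+ cells alone.

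Of 16 measured genes of the TGF-beta and BMP list, with a median fold of 1.92, 4 were higher, and all 4 are ligands: Bmp2 (91.7-fold, 388 ± 175 CPM), Bmp4, Bmp7 and Tgfb2 (5.91-fold, 747 ± 259.8 CPM). Tgfb1 was lower. Tgfb2 stood higher in the neuroglia, at 1275 CPM. Of 12 genes of the Norrin and Wnt list, with a median fold of 1.29, 3 were higher, the secreted proteins Sfrp1 and Dkk3 and the ligand Wnt5a (7.50-fold), and Tspan12, a co-receptor for Norrin in ECs, was lower. Dkk3 stood at 2582 CPM in the neuroglia, and Wnt5a at 106 CPM in neurons against 79.5 CPM in Optc+ cells. Of 11 other collagens, Col4a5, a chain of basement membranes, was 214-fold higher (372 ± 80.5 CPM) and Col23a1, a membrane-bound collagen, 49.1-fold. The main chains of vascular basement membrane went the other way, Col4a1 at 0.117 and Col4a2 at 0.169 of the level of the other cells.

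The immediate early genes Fos, Fosb, Jun and Egr1 were 4.27-fold to 10.0-fold higher, and all 4 were higher still in the neuroglia. Of 13 hypoxia genes, Ndrg1 was higher and Adm, Ankrd37 and Egln1 lower, with a median fold of 0.787, against 0.786 for all measured genes. Of 14 cell cycle genes 6 were lower and none higher. UMIs of at least 3 cycle genes were found in 13 Optc+ cells (8.28%), against 51.5% of Proliferative ECs and 0.543% of neuroglia, at differing depths.

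Between the genotypes, Optc+ cells made up 1.47% (95% Wilson interval 0.894 to 2.41), 3.92% (2.64 to 5.76) and 3.50% (2.66 to 4.60) of the cells in the eNOS+/+ replicates. In the eNOS-/- replicates they made up 1.34% (0.904 to 1.99), 1.08% (0.793 to 1.46) and 1.20% (0.516 to 2.79). The intervals cover counting error only. The groups did not overlap, but eNOS+/+ replicate 1 stood close to the eNOS-/- replicates. The means were 2.96 ± 1.31% and 1.21 ± 0.132% (SD, n = 3 each), a difference of -1.75 points with an exact two-sided permutation p of 0.1, the smallest that 3 against 3 allows, so the design could not pass 0.05. Of the cells that were not ECs, which the enrichment leaves in differing amounts, the shares were 2.88, 28.9 and 16.0% against 4.46, 2.77 and 3.94%, and there the groups overlapped (exact permutation p = 0.3). With marker-positive cells and pigment-rich cells that had at least 1 of the 4 genes counted alone, the shares were 2.96 ± 1.31% and 0.707 ± 0.635%, given with no test since the cells were chosen after their values were seen. A share of the captured cells cannot tell more Optc+ cells in the eye from a change in how many came off with the retina.

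**Figure D4:**
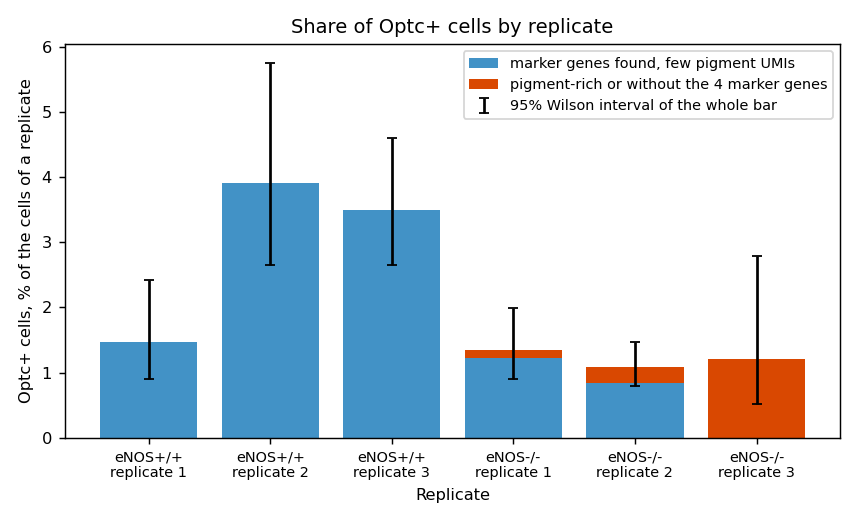
Optc+ cells as percent of all cells of each replicate, in stacked bars, with blue for cells with marker genes and few pigment UMIs, red for cells that were pigment-rich or had none of the 4 marker genes, and error bars for the 95% Wilson interval of the whole bar. The eNOS+/+ bars stand at 1.47, 3.92 and 3.50% and have no red part, and the eNOS-/- bars stand at 1.34, 1.08 and 1.20%, with that of replicate 3 wholly red.

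Within Optc+ cells, 670 genes could be tested between the genotypes on UMIs summed per replicate, and the quasi-likelihood test of edgeR, adjusted by Benjamini-Hochberg, called 3 (0.448%), all lower in eNOS-/-. Dusp1, a phosphatase of MAP kinases that is induced by stress (chr17:26505590-26562128), stood at 475, 552 and 725 CPM in eNOS+/+ and at 62.1, 82.2 and 0 CPM in eNOS-/-. Its log2 fold change was -3.03 (SE 0.68, adjusted p = 0.0101, edgeR), from 98 against 6 UMIs. Rnaset2a and Rnaset2b, which encode copies of a lysosomal ribonuclease (chr17:8115445-8148097 and chr17:6970634-7011299), stood at 594, 595 and 487 against 124, 0 and 0 CPM and at 535, 489 and 362 against 31.1, 41.1 and 0 CPM. Their log2 fold changes were -3.39 (SE 0.78, adjusted p = 0.0101, edgeR) and -3.52 (SE 0.89, adjusted p = 0.0303, edgeR). The copies are nearly identical, so how reads were split between them is uncertain. In all 3 genes every eNOS+/+ replicate was above every eNOS-/- replicate, which adds nothing to the calls, since the same values made them. The share of the 670 genes that separated so was not counted. The level of 0 CPM in eNOS-/- replicate 3 came from 3997 UMIs of 5 cells that lacked the 4 marker genes.

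In the other cells of the same libraries the 3 genes did not separate in this way. Dusp1 stood at 160 ± 37.0 against 172 ± 124 CPM, Rnaset2a at 81.9 ± 28.4 against 61.3 ± 56.0 CPM and Rnaset2b at 119 ± 49.8 against 90.7 ± 69.5 CPM (SD, n = 3 each). The difference between Optc+ cells and other cells in this respect was not tested. The calls were lost when eNOS+/+ replicate 2, eNOS+/+ replicate 3 or eNOS-/- replicate 2 was left out (adjusted p from 0.106 to 0.326, edgeR), and those of Dusp1 and Rnaset2b also without eNOS-/- replicate 1. They were lost too without the 9 pigment-rich cells, where 497 genes were tested and 0 called (33 at an unadjusted p under 0.05). The log2 fold changes stayed between -2.82 and -3.50 for Dusp1 and between -3.41 and -3.98 for Rnaset2b over the 15 alternatives, and between -2.44 and -7.49 for Rnaset2a. Among cells with a UMI of the 4 genes, 4 of 726 genes were called, these 3 and Cryab, all lower. That choice of cells was made after the values were seen and removes eNOS-/- cells alone. It leaves eNOS-/- replicate 3 with 0 UMIs, so only eNOS-/- replicates 1 and 2 entered, and it is no separate support for the calls.

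No gene was called higher in eNOS-/- in this fit. Without eNOS+/+ replicate 2 the calls were instead 2 genes, and without eNOS+/+ replicate 3 they were 5 genes, all higher and none of them among the 3. With all replicates, the 3 of smallest p in that direction were B2m (log2 fold change 1.78, SE 0.53, adjusted p = 0.0967), Sptbn1 (1.67, SE 0.53, adjusted p = 0.150) and Itgb1 (1.68, SE 0.55, adjusted p = 0.165), by edgeR's test. All 3 were highest in eNOS-/- replicate 3, at 1251, 1001 and 1501 CPM, and its cells lacked the marker genes. In eNOS-/- cells outside the Optc+ type their means were 1131, 1011.5 and 1203 CPM. Without that replicate the change was 1.72 for B2m and 1.65 for Sptbn1. Among cells with a UMI of the marker genes it was 0.96 for B2m, 1.57 for Sptbn1 and 1.15 for Itgb1. What lowered the B2m and Itgb1 changes there was not tested. AI506816, a transcript that stood at 104 ± 31.4 CPM in the other cells of eNOS+/+ and at 14.3 ± 6.73 CPM in those of eNOS-/- (SD, n = 3 each), had 7 UMIs in the Optc+ cells of eNOS+/+ and 0 in those of eNOS-/-, too few to test.

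Optc itself was not called, with a log2 fold change of -1.92 (SE 0.64, adjusted p = 0.181, edgeR). Without eNOS-/- replicate 3, whose 5 cells lacked it, the change was -1.50 (SE 0.39, adjusted p = 0.00762, edgeR). Optc was called in 2 of 15 alternatives, this 1 and that of replicates with at least 10 Optc+ cells, which keeps the same cells. Its change ran from -2.41 to -1.09 over the 15. The value of -1.09 (SE 0.36, adjusted p = 0.158, edgeR) came from cells with a UMI of the 4 marker genes, a choice that rests on Optc itself. Of the 23 genes called without eNOS-/- replicate 3, 12 were higher and 11 lower. Among them were Dct, Pmel, Mlana, Gpnmb and Tyrp1 higher and Optc, Igfbp2, Rax and Cryab lower. The pigment genes stood high in the same eNOS-/- replicates that held the 9 pigment-rich cells. The other marker genes were not called either: Crhbp changed by -1.23 (adjusted p = 0.503), Dapl1 by -0.92 (adjusted p = 0.888) and Col9a1 by -0.38 (adjusted p = 0.948, edgeR).

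The gene lists were described in the same fit, with no test of their own. Of 8 tested vitreous genes 7 had a log2 fold change below 0, with a median of -0.94, against a median of -0.06 over all 670 genes, and none was called. All 7 tested ciliary epithelium genes and all 6 eye field factors were below 0, at medians of -0.52 and -0.82, with none called. How many of all 670 genes lay below 0 was not counted. The fit includes the 9 pigment-rich cells and eNOS-/- replicate 3, whose 5 cells had 0 vitreous UMIs. Among cells with a UMI of the 4 marker genes the vitreous, ciliary epithelium and eye field medians were -0.31, -0.02 and -0.34. The median over all 726 genes tested there was -0.01. That choice of cells rests on Optc and Col9a1, which are in the vitreous and ciliary epithelium lists.

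**Figure D5:**
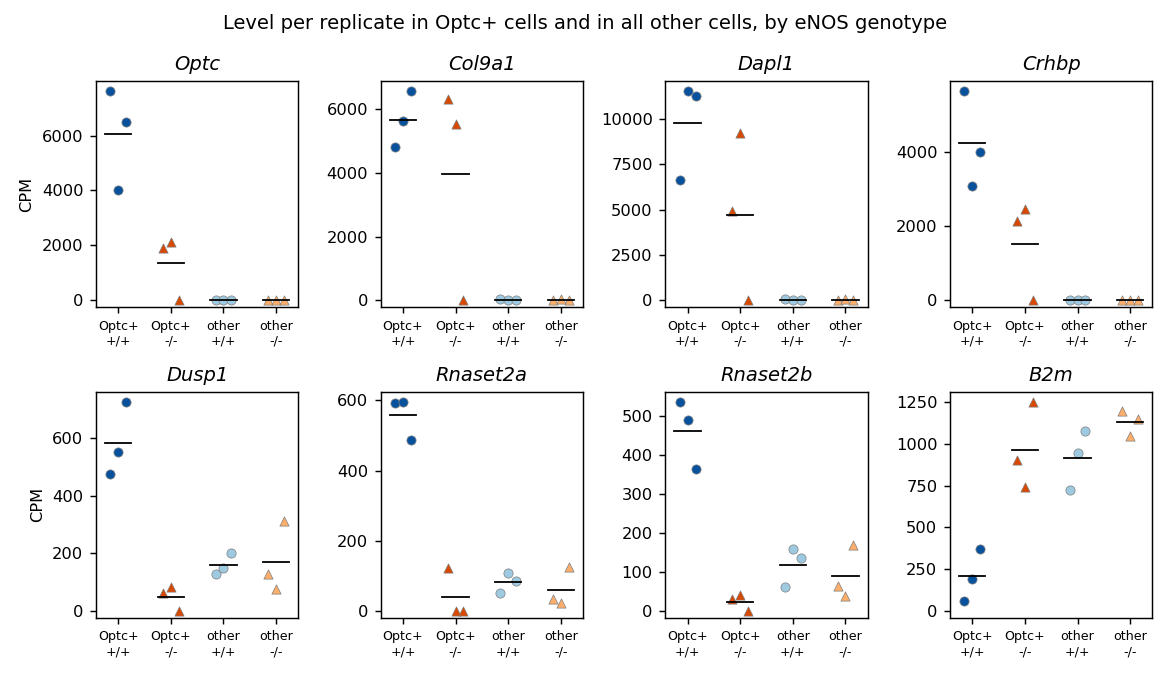
CPM per replicate of the 4 marker genes, the 3 called genes and B2m in Optc+ cells and in the other cells, with points for replicates and a line for the mean of 3. Dusp1, Rnaset2a and Rnaset2b are lower in all eNOS-/- replicates of Optc+ cells and overlap between genotypes in the other cells, and the 4 marker genes are at 0 in eNOS-/- replicate 3.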

How the data were processed

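Drop-seq libraries of 6 replicates were measured, 3 per genotype. Reads were aligned by the authors (kb-python, GRCm38), who kept cells with at least 100 genes and at most 10% mitochondrial UMIs. The authors removed contaminant clusters of red blood cells and retinal pigment epithelium and named cell types. They deposited UMI counts of 20822 genes without normalization, with an annotation of which 10 columns were not used. Seurat 3 is named in the submitters' processing notes. How doublets were treated is not given in the sources used here, and no caller was run.

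UMIs of Optc+ cells were summed per replicate. Genes with at least 30 UMIs over all cells were described by folds of mean CPM, with means of every type taken over replicates with at least 10 of its cells. Genotypes were compared with edgeR 4.0.16 (filterByExpr, TMM, quasi-likelihood test, Benjamini-Hochberg adjustment, limit 0.05), with DESeq2 1.42.0 as an alternative, and shares by exact two-sided permutation tests. Standard errors were derived from each F statistic and fold change. R 4.3.3, Python 3.11.15, numpy 2.4.6, pandas 2.3.3, scipy 1.17.1 and matplotlib 3.10.9 were used. On simulated data, 198 of 200 genes raised in the fold description were recovered with 1 false call, and 177 of 200 genes changed by 2 on the log2 scale in the genotype test, with 6 false calls. The 3 eNOS+/+ replicates, and eNOS-/- replicates 1 and 2, differed within their genotype by 1.95 to 3.02 times sampling noise (chi-square per gene). Pairs with eNOS-/- replicate 3, which had 5 Optc+ cells, were left out of this range.

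The cells and gene lists were chosen with earlier results of these data known. Named genes were the 20 of largest fold, list members, Optc, Nos3, AI506816, up to 5 genes called between genotypes per direction (or 3 that were not called) by smallest p and the 10 most like Optc across types. Genes outside this rule are said to be chosen after their values were seen. Coordinates are those of GENCODE genes of the same symbol. Members of the lists that the text does not name are given by their counts. A member of the lists is not reported here.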

Additional observations from a re-analysis of the deposited data

How the results depend on the processing

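Alternatives for the folds were another fold, pooled UMIs, comparison with non-ECs alone or with each type, stricter filters and each replicate left out, and 3 chosen after seeing the data left out pigment-rich cells, marker-negative cells or barcode families. The number of higher genes moved by over 1.5 times only at a limit of 2-fold (513), and the others gave 220 to 409. The number of lower genes was 743 against non-ECs alone and 1326 with at least 100 UMIs over all cells, and 1811 to 2832 otherwise. Leaving out 1 replicate gave 303 to 409 higher and 2096 to 2832 lower genes.

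Between genotypes, edgeR called 5 genes with RLE scaling, 9 of 12636 with no filter on low counts (all higher in eNOS-/-, 0 shared with the 3), 23 with replicates of at least 10 Optc+ cells alone and 0 without pigment-rich cells, and DESeq2 called 4. Leaving out 1 replicate gave 0 to 23 calls: 21 without eNOS+/+ replicate 1 (13 higher and 8 lower), 2 without replicate 2 and 5 without replicate 3 (all higher, 0 shared with the 3), and 1, 0 and 23 without eNOS-/- replicates 1, 2 and 3 (12 of the 23 higher). The 0 calls without eNOS-/- replicate 2 stood beside 63 genes at an unadjusted p under 0.05. With the replicate number as a block 0 genes were called (47 at an unadjusted p under 0.05). The paired share gave an exact permutation p of 0.25, the smallest that 3 pairs allow. Deviations of same-numbered replicates correlated at 0.131, -0.00962 and 0.0977, so the numbers were not taken as pairs. Over 15 alternatives Dusp1 was called in 8 (adjusted p 0.000434 to 0.372), Rnaset2a in 9 (0.000275 to 0.326) and Rnaset2b in 8 (0.000765 to 0.326), all lower in each. Changes that reversed were Col9a1 at 0.12 without eNOS-/- replicate 3 (the same cells as replicates with at least 10), in a range of -0.83 to 0.12 over the replicates left out, and Col9a1 at 0.52 and Dapl1 at 0.029 among cells with a UMI of the 4 marker genes, a choice of cells that rests on these same genes and removes eNOS-/- cells alone, so those values bear no reading. The cause of the other changes was not tested. The difference in share stayed negative in all 11 alternatives, from -1.28 to -2.50 points with 1 replicate left out. With 1 replicate left out the exact permutation p was 0.2 each time, the smallest that 3 against 2 allows. The other alternatives gave exact permutation p from 0.2 to 0.3. Among these the choice of cells by the 4 marker genes is not counted, as it is given with no test. The depth of 3997 UMIs in eNOS-/- replicate 3 limits every value that includes it, and cells of a barcode family may not be separate cells: with each family counted as 1 cell the shares were 2.82 ± 1.54% and 1.06 ± 0.254% (exact permutation p = 0.2).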

Other observations

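Genes ranked 21 to 40 by fold, which were chosen after their values were seen and are given without a test, held further secreted regulators and enzymes. Wif1, a secreted inhibitor of Wnt ligands, stood 138-fold higher in Optc+ cells than in the other cells, at 211 ± 116 CPM (SD, n = 5 replicates). Ltbp1, which binds latent TGF-beta, stood 130.4-fold higher, and Gas1, a membrane protein that binds hedgehog ligands, 109.8-fold. Aldh1a1, an enzyme of retinoic acid synthesis, stood at 504 ± 213 CPM, 104-fold higher. Mab21l2, a gene of early eye formation, stood at 640.3 ± 157 CPM, 97.2-fold higher. Cgn, which encodes cingulin, a protein of tight junctions, stood 172-fold higher, at 508 ± 315 CPM. Ptgds, a prostaglandin synthase, stood 109.7-fold higher, and 226 of its 660 UMIs in Optc+ cells lay in the 9 pigment-rich cells. Ptn, a growth factor outside these ranks, was found in all 6 replicates, from 2919.6 to 7756 CPM, but 134 of its UMIs in eNOS-/- replicate 2 lay in the 2 cells with fibroblast genes, its 31 UMIs in eNOS-/- replicate 3 were those of the 5 cells with mural genes, and the 9 pigment-rich cells had 0. Its mean was 5569 ± 1513 CPM, 31.6-fold that of the other cells, and the neuroglia stood at 3307 CPM.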
